A study of Homo sapiens with 4 samples.

Results

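The genes described here are 10 enzymes of the HSD17B, SRD5A and UGT2B families, grouped under androgen metabolism although not all act mainly on androgens. They are HSD17B4, HSD17B6, HSD17B8, HSD17B10, HSD17B11, HSD17B12, SRD5A1, SRD5A3, UGT2B15 and UGT2B17. They were followed in LNCaP, a human prostate cancer cell line whose growth responds to androgen, on 4 Affymetrix expression arrays of biotin-labelled RNA. The cells of 2 arrays had received exosomes of PC-3, another prostate cancer line, which lacks androgen dependence. Exosomes are membrane vesicles shed by cells. The cells of the other 2 arrays had received PBS, a buffer, as the control. Both groups were kept in RPMI-1640 medium with fetal bovine serum. Whether separate cultures stand behind the 2 arrays of a group is not stated in the labels. Every p-value therefore rests on the spread between these arrays, borrowed in part from other genes, and that spread may be technical alone. Dose and time of exposure are not given in the labels. Members were found by name. A probe set, the group of short probes that reports one transcript target, counted when the array annotation tied it to exactly 1 gene and that gene was a member. That gave 17 of 44988 single-gene probe sets, for 7 of 10 members. HSD17B4 had 3, HSD17B8 and HSD17B10 had 1 each, HSD17B11 had 2, HSD17B12 had 3, SRD5A1 had 4 and UGT2B15 had 3. HSD17B6 was named only on 1 probe set shared with RDH16, UGT2B17 only on 2 shared with UGT2B15, and SRD5A3 was not analysed here because the annotation used names it on no probe set.

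Steroid reductases of the SRD5A family turn testosterone into dihydrotestosterone, the strongest natural ligand of the androgen receptor. Enzymes of the HSD17B family oxidise or reduce a hydroxyl group on the steroid ring and so switch androgens and estrogens between active and weak forms, and many of them act mainly on fatty acids or other substrates. UGT2B15 and UGT2B17 attach glucuronic acid to dihydrotestosterone and its breakdown products, the main exit route of androgens in prostate cells, and androgen is known to repress both in LNCaP.

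One member changed past the threshold. HSD17B4, the peroxisomal multifunctional enzyme that carries out the middle steps of beta-oxidation and also oxidises estradiol, rose 1.20-fold with PC-3 exosomes, a call lost when any 1 of the 4 arrays was left out. SRD5A1 and HSD17B12 were higher on both exosome arrays than on both PBS arrays, as were 17.8% of all genes. Neither passed the test. The HSD17B members other than HSD17B4, with UGT2B15, had log2 fold changes between -0.13 and 0.08, and none of them passed.

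Promoter sequence is printed for HSD17B4, the gene that passed, and for SRD5A1 and UGT2B15, the androgen-activating and the androgen-removing enzyme set beside it below. Each line gives the 250 bases before the start of the gene in RefSeq (GRCh38.p14), 5′ to 3′ on the gene's own strand. Capitals mark matches to 6 short motifs searched on both strands.
HSD17B4, chr5:119452247-119452496, plus strand: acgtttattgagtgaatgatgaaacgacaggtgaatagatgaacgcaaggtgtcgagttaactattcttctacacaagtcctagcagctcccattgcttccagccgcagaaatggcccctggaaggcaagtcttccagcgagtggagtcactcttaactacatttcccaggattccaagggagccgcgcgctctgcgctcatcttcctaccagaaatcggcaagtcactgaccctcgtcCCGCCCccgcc
SRD5A1, chr5:6633190-6633439, plus strand: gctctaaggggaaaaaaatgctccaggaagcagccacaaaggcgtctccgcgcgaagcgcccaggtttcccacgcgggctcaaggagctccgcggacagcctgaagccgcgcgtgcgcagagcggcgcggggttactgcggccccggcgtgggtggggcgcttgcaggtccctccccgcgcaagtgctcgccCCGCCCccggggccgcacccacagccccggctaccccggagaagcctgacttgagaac
UGT2B15, chr4:68670653-68670902, minus strand: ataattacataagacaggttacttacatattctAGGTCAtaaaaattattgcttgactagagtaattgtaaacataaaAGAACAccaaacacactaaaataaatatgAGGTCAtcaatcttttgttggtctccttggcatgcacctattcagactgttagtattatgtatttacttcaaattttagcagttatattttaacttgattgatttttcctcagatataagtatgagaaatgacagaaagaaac

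The motifs were the GC box (GGGCGG), the CCAAT box (CCAAT), the TATA box (TATAAA), a single repeat of the androgen receptor's element (AGAACA), a single repeat of other nuclear receptors' element (AGGTCA) and the core of the antioxidant response element (TGACNNNGC). Among 35093 RefSeq promoters of this length, 42.6% held the GC box, 32% the CCAAT box and 10.7% the TATA box. AGAACA was in 12.4%, AGGTCA in 12.1% and the antioxidant core in 10.9%. The HSD17B4 window held 1 GC box, beginning 11 bases before the start, and had a GC content of 52.8%. The SRD5A1 window held 1 GC box, beginning 58 bases before the start, and had a GC content of 70.8%. The UGT2B15 window was poor in GC, at 28.4% against a median of 58% over all promoters, and held no GC, CCAAT or TATA box. It held AGAACA 1 time, beginning 172 bases before the start, and AGGTCA 2 times. These matches are descriptions of the letters, and no binding was measured. Of the members, 7 have an entry in the promoter table used.

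The deposited values are normalized intensities on a linear scale. The median intensity was 110.8 to 111.3 on the exosome arrays and 112.0 to 112.5 on the PBS arrays. Precision is limited by the number of arrays, 2 a group. Probe sets that serve as background controls had medians of 18.7 to 19.4 with exosomes and 19.3 to 19.6 with PBS. Added control RNAs with poly-A tails (spike-ins) were 0.14 higher on the log2 scale with exosomes, or 0.20 higher with PBS replicate 1 left out and 0.076 higher with PBS replicate 2 left out. Of 9 markers of LNCaP and luminal prostate 6 were measured, at mean intensities of 889 to 14010 with exosomes and 715 to 14186 with PBS, and none passed the threshold. KLK3, the prostate-specific antigen, had 13974 and 14046 with exosomes and 14526 and 13847 with PBS. LNCaP is the cell line in all sample labels, although the extraction text refers to brain tissue. All 8 markers of PC-3 were measured, 1 of them (LCN2) was called higher, and their summed intensity was 1287 and 1295 with exosomes against 1131 and 1120 with PBS. Of the 8 markers 4 were above 0 and 4 below, with a median log2 fold change of -0.004, and LCN2 alone averaged 351 with exosomes against 178 with PBS. The lowest of these markers, CAV2, averaged 18.3 with exosomes and 17.3 with PBS. The sums for 4 brain markers were 1291 and 1312 with exosomes against 1159 and 1203 with PBS, with 2 markers above 0 and 2 below. Most of that gap was MBP, named after its values were seen, which averaged 867 with exosomes against 764 with PBS (log2 fold change 0.18, limma adjusted p = 0.201). For 4 fibroblast markers they were 183 and 189 with exosomes against 178 and 197 with PBS, and for 3 leukocyte markers 440 and 448 with exosomes against 430 and 451 with PBS. None of the brain, fibroblast or leukocyte markers passed, and the part of any of these markers in the results below was not tested.

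Genes were tested with limma on log2 of the intensity plus 1, each gene by its probe set with the highest mean, and p-values were adjusted over 18132 genes. A second fit tested each of the 44988 single-gene probe sets. A call means an adjusted p under 0.05. In the gene fit 127 genes (0.700%) were called higher and 34 (0.188%) lower. Of the 7 member genes 1 was called higher and 0 lower (limma). The unadjusted p was under 0.05 for the same gene and no other, against a background of 5.76% of genes higher and 5.16% lower. The 2 exosome arrays lay wholly above the 2 PBS arrays in 3 of the 7, against 17.8% of all genes, and wholly below in 0 of the 7, against 21.9%. The median log2 fold change of the 7 was 0.02, from -0.13 to 0.26, beside a median of -0.01 over all genes.

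In the probe-set fit 0.238% of probe sets were called higher and 0.0200% lower. Of the 17 member probe sets 1 was called higher and 0 lower. Unadjusted, 4 had a p under 0.05, all of them higher with exosomes, against 4.73% of all probe sets higher and 4.14% lower. The groups did not overlap in 7, all of them higher with exosomes, against 17.2% of probe sets higher and 20.5% lower. The median log2 fold change was 0.08 over the 17, with 13 above 0, and -0.009 over all probe sets, with 45.8% above 0. Probe sets of 1 gene report the same RNA, so the 17 are not independent. Without the 3 of HSD17B4, 14 remained, of which 10 were above 0, 4 did not overlap and 0 were called by limma, with 1 at an unadjusted p under 0.05 and a median of 0.05.

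**Figure D1:**
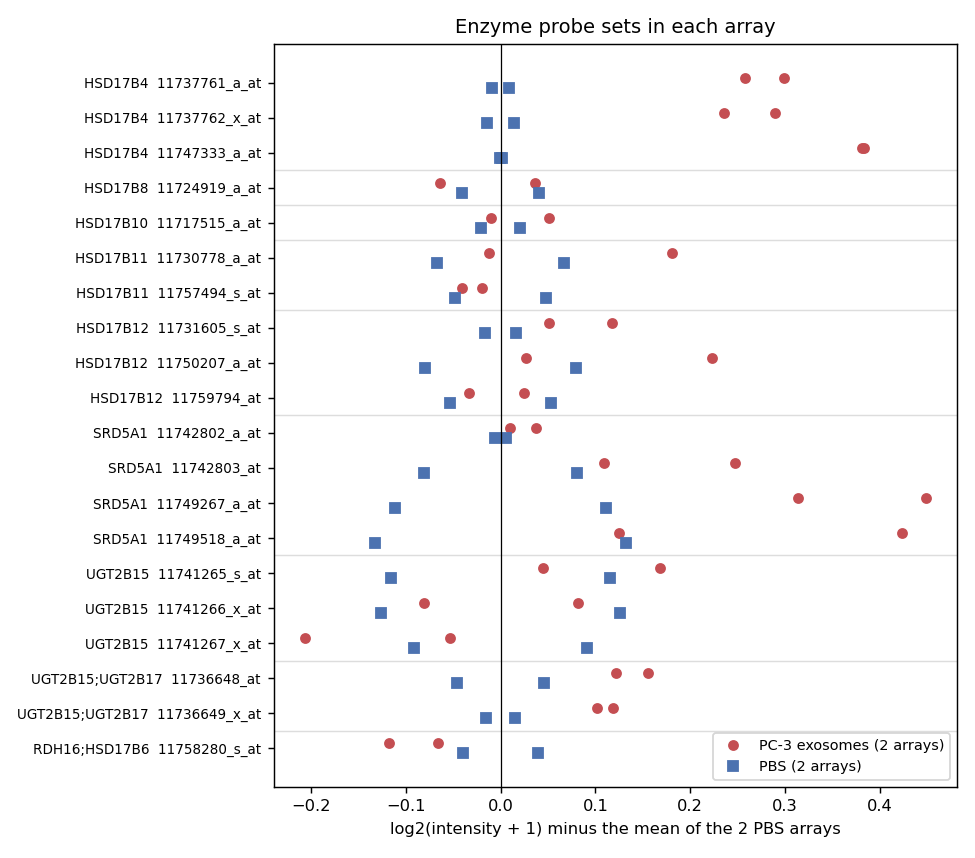
Each row is a probe set of a member, single-gene sets above and sets shared between genes at the bottom, and the x axis is log2 of the intensity plus 1 minus the mean of the 2 PBS arrays. Circles are the 2 arrays with PC-3 exosomes and squares the 2 with PBS: all 3 HSD17B4 rows have both circles to the right of both squares, while the 3 UGT2B15 rows overlap.

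HSD17B4 was represented in the gene fit by probe set 11737762_x_at. Its intensity was 4904 and 5091 with PC-3 exosomes, against 4207 and 4125 with PBS. Both exosome arrays were above both PBS arrays, and the gap between groups was wider than the gap within either. The mean was 4997 ± 132 (SD, n = 2) with exosomes, against 4166 ± 58.2 (SD, n = 2) with PBS, a log2 fold change of 0.26 (SE 0.039, 95% interval 0.17 to 0.35, limma adjusted p = 0.0210). The interval corresponds to a fold between 1.13 and 1.28. By p-value the gene was number 77 of 18132, and 1.72% of genes had a higher log2 fold change. Since these are bulk samples, a change in the mix of cells and a change of RNA per cell cannot be told apart.

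The other probe sets of HSD17B4 moved in the same direction. Probe set 11747333_a_at had 2150 and 2146 with exosomes against 1649 and 1647 with PBS. Its replicates nearly coincided, and it was the 1 member probe set past the threshold in the probe-set fit, with a log2 fold change of 0.38 (SE 0.044, 95% interval 0.28 to 0.48, fold 1.30, limma adjusted p = 0.0244). Probe set 11737761_a_at had 2932 and 3017 with exosomes against 2467 and 2437 with PBS, again without overlap. Its log2 fold change was 0.28 (SE 0.043), with a limma adjusted p of 0.0660, and that of 11737762_x_at was 0.0657 in the same fit.

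A fit with an array left out has 1 array in a group, and most calls over all genes were lost in such fits. The call of HSD17B4 was lost too, with any 1 of the 4 arrays left out. The log2 fold change was 0.29 without exosome replicate 1 (limma adjusted p = 0.115) and 0.24 without exosome replicate 2 (0.295). With PBS replicate 1 left out it was 0.28 (0.102), and with PBS replicate 2 left out 0.25 (0.159). Centred on the poly-A spike-ins, which takes the median of all genes to -0.15, it was 0.12 (limma adjusted p = 0.368). With the mean of its 3 probe sets in place of the brightest, it was 0.31 (limma adjusted p = 0.00972).

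**Figure D2:**
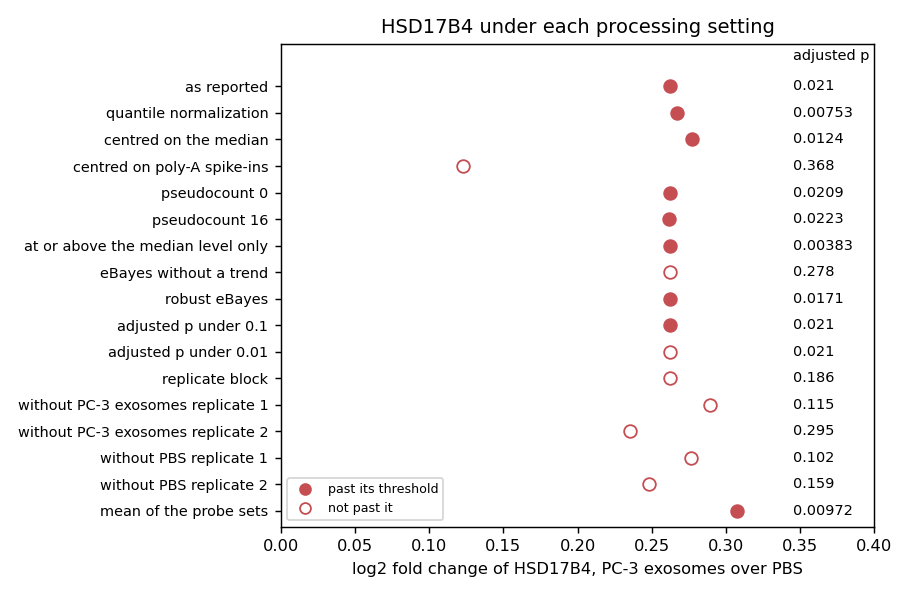
The x axis is the log2 fold change of HSD17B4, PC-3 exosomes over PBS, and each row is a processing setting with its limma adjusted p printed at the right. Filled points passed the threshold of their setting and open ones did not: the fold change stayed between 0.12 and 0.31, and all 4 settings that leave out an array are open.

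SRD5A1, the reductase that makes dihydrotestosterone in many prostate cancers, was represented by probe set 11742803_at. Its intensity was 349 and 384 with exosomes, against 342 and 306 with PBS. The groups did not overlap, but the lower exosome array and the higher PBS array were close. The log2 fold change was 0.18 (SE 0.080, 95% interval -0.003 to 0.36), with a limma adjusted p of 0.463 and an unadjusted p of 0.0528, and 4.69% of genes were higher. With 1 array left out it was 0.25 without exosome replicate 1, 0.11 without exosome replicate 2, 0.26 without PBS replicate 1 and 0.097 without PBS replicate 2, and centred on the poly-A spike-ins it was 0.038. Probe set 11749267_a_at had 107 and 118 with exosomes against 93.0 and 79.6 with PBS. This was the widest separation among the 4 SRD5A1 probe sets, a log2 fold change of 0.38 (SE 0.10, 95% interval 0.14 to 0.62, unadjusted p = 0.00701, limma adjusted p = 0.333). Probe set 11742802_a_at had 222 and 226 with exosomes against 219 and 221 with PBS, a log2 fold change of 0.02. Probe set 11749518_a_at had 144.2 and 177.4 with exosomes against 144.9 and 120.5 with PBS, a log2 fold change of 0.27 (SE 0.13). All 4 were above 0, and 3 lay wholly higher with exosomes, against 17.2% of all probe sets. Those 3 include 11742802_a_at, with its log2 fold change of 0.02. The 4 report the same RNA and are not independent. Their log2 fold changes ran from 0.02 to 0.38, so the size of any difference depended on the probe set.

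**Figure D3:**
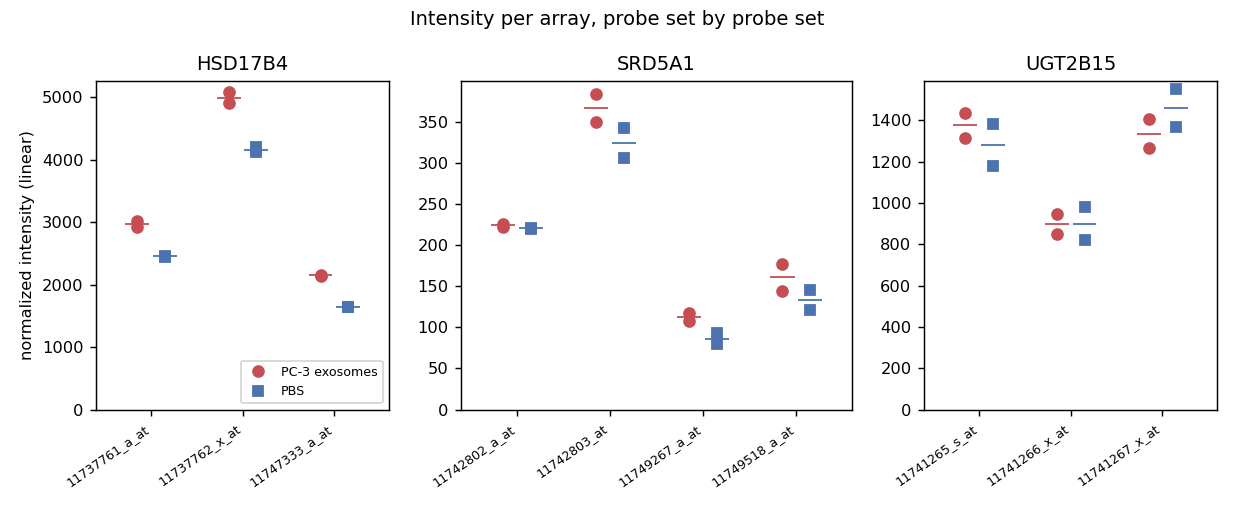
The y axis is the normalized intensity on a linear scale from 0, drawn separately for HSD17B4, SRD5A1 and UGT2B15, with their probe sets on the x axis. Circles are the 2 arrays with PC-3 exosomes, squares the 2 with PBS and bars the means. The groups part in every HSD17B4 probe set and in 3 of the 4 of SRD5A1. They overlap in SRD5A1 11749518_a_at and in every UGT2B15 probe set.

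HSD17B12, the ketoacyl reductase of fatty acid elongation that can also reduce estrone, had 476 and 498 with exosomes against 464 and 454 with PBS. Its arrays did not overlap, but the log2 fold change was 0.08 (SE 0.060, 95% interval -0.05 to 0.22, limma adjusted p = 0.677). Probe set 11750207_a_at gave 0.13 (SE 0.099). Probe set 11759794_at had 25.0 and 24.0 with exosomes against 25.5 and 23.6 with PBS, a log2 fold change of -0.004 at intensities little above the median of the background controls.

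HSD17B11, an oxidising enzyme of lipid droplets that acts on androstanediol, had 224 and 227 with exosomes against 238 and 223 with PBS. The exosome arrays lay within the range of the PBS arrays, and the log2 fold change was -0.03 (SE 0.072, 95% interval -0.19 to 0.13, limma adjusted p = 0.938). Its other probe set, 11730778_a_at, had 110.3 and 126 with exosomes against 117 and 106 with PBS, a log2 fold change of 0.08 (SE 0.099). The 2 probe sets differed in sign, and neither difference was larger than its error.

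HSD17B10 is a mitochondrial dehydrogenase of isoleucine breakdown, a subunit of mitochondrial RNase P, and an oxidiser of androstanediol. It had 3722 and 3569 with exosomes against 3645 and 3542 with PBS. The ranges overlapped, with a log2 fold change of 0.02 (SE 0.042, 95% interval -0.07 to 0.12, limma adjusted p = 0.923). HSD17B8, a mitochondrial dehydrogenase that oxidises estradiol and forms a fatty acid synthesis enzyme with CBR4, had 691 and 645 with exosomes against 693 and 655 with PBS. The groups again overlapped, and the log2 fold change was -0.01 (SE 0.061, 95% interval -0.15 to 0.12, limma adjusted p = 0.976).

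UGT2B15, the glucuronosyltransferase for dihydrotestosterone, had 1265 and 1407 with exosomes against 1554 and 1370 with PBS on probe set 11741267_x_at. One exosome array was below both PBS arrays and the other between them. The log2 fold change was -0.13 (SE 0.072, 95% interval -0.29 to 0.03, limma adjusted p = 0.571). With 1 array left out it was -0.053 without exosome replicate 1, -0.21 without exosome replicate 2, -0.039 without PBS replicate 1 and -0.22 without PBS replicate 2. By the mean of the 3 probe sets it was -0.0075, and centred on the poly-A spike-ins -0.27. Probe set 11741265_s_at had 1317 and 1435 with exosomes against 1384 and 1178 with PBS, which gave 0.11 (SE 0.082). Probe set 11741266_x_at had 848 and 949 with exosomes against 979 and 822 with PBS, which gave 0.0005 (SE 0.092). In each of the 3, exosome replicate 2 was above replicate 1 and PBS replicate 1 above replicate 2. No direction could be given for UGT2B15, because its probe sets disagreed in sign and all 3 overlapped between groups.

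UGT2B15 and UGT2B17 are neighbours on chromosome 4 in RefSeq (GRCh38.p14) and their transcripts are very similar, so a probe set of either may read both. The 2 probe sets that the annotation gives to both were fitted together with all multi-gene probe sets. Probe set 11736648_at had 346 and 338 with exosomes against 301 and 320.4 with PBS, a log2 fold change of 0.14 (SE 0.068, 95% interval -0.02 to 0.30, limma adjusted p = 0.618). Probe set 11736649_x_at had 406 and 401 with exosomes against 370 and 378 with PBS, a log2 fold change of 0.11 (SE 0.062, 95% interval -0.03 to 0.25, limma adjusted p = 0.664). On both, the exosome arrays lay above the PBS arrays, and neither passed. The value of UGT2B17 alone cannot be separated from that of UGT2B15 on them.

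HSD17B6, which oxidises androstanediol back to dihydrotestosterone, shared its probe set 11758280_s_at with RDH16, a related retinol dehydrogenase. It had 488 and 506 with exosomes against 515 and 545 with PBS. The exosome arrays lay below the PBS arrays, and the log2 fold change was -0.09 (SE 0.063, 95% interval -0.24 to 0.05, limma adjusted p = 0.736).

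**Figure D4:**
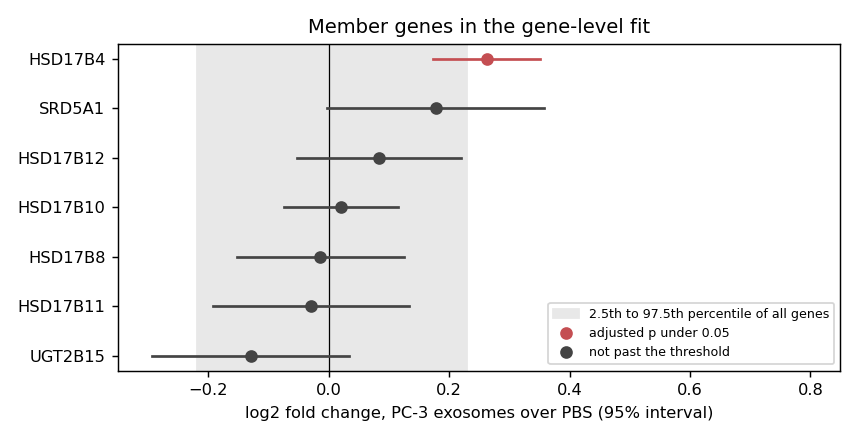
Points are the log2 fold changes of the 7 member genes in the gene fit, PC-3 exosomes over PBS, and lines their 95% intervals. The grey band holds the middle 95% of all genes, -0.22 to 0.23, and the HSD17B4 point at 0.26 lies outside it, as the other 6 do not.

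The 95% intervals of the fold differed in width among the 6 member genes other than HSD17B4. They were 0.950 to 1.08 for HSD17B10, 0.900 to 1.09 for HSD17B8, 0.875 to 1.10 for HSD17B11 and 0.965 to 1.16 for HSD17B12. The intervals of SRD5A1, at 0.998 to 1.28, and UGT2B15, at 0.816 to 1.02, reached farther from 1. Their adjusted p-values lay between 0.463 and 0.976.

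The other enzymes of the same 3 families were followed as a list of 12, all measured. With exosomes 4 were above 0 and 8 below, 0 were called by limma, 2 were lower at an unadjusted p under 0.05, and the median was -0.05. For this list and those below, the shares of all genes at that unadjusted limma p were 5.76% higher and 5.16% lower. Those called were 0.700% higher and 0.188% lower. UGT2B28, a glucuronosyltransferase of androgens, had 216 and 219.9 with exosomes against 249 and 286 with PBS (log2 fold change -0.29, SE 0.082, limma adjusted p = 0.204). UGT2B7, a transferase of broad substrate range, had 17.8 and 17.4 with exosomes against 22.8 and 19.6 with PBS. It is the other of the 2 lower genes, but its exosome values were below the medians of the background controls, so no fold is given.

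Of 25 other genes of androgen synthesis and inactivation, all measured, 2 were called higher and 0 lower, 3 were higher and 2 lower by an unadjusted p under 0.05, and the median was -0.004. Both calls were ketosteroid reductases that inactivate dihydrotestosterone or progesterone. AKR1C1 had 86.2 and 113 with exosomes against 35.5 and 34.4 with PBS (log2 fold change 1.47, SE 0.12, limma adjusted p = 0.00116). AKR1C2 had 230.2 and 241 with exosomes against 113 and 135 with PBS (log2 fold change 0.93, SE 0.095, limma adjusted p = 0.0028), and its log2 fold change was 0.54 by the mean of its probe sets. AKR1C3, the relative that makes testosterone, also on the PC-3 marker list and named after its values were seen, had 109 and 93.3 with exosomes against 62.4 and 79.5 with PBS. Its groups did not overlap, and it did not pass (log2 fold change 0.51, SE 0.13, limma adjusted p = 0.139). The transcripts of these genes are similar, so the array may not tell them fully apart. AKR1C1 and AKR1C2 were also called with any 1 array left out.

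Of 15 measured genes listed around peroxisomal beta-oxidation, the pathway of HSD17B4, 9 were above 0 and 6 below. By limma 0 were called, 2 were higher at an unadjusted p under 0.05, and the median was 0.06. Not all are enzymes of that pathway: PHYH and HACL1 belong to alpha-oxidation, CAT is catalase, and PEX5 and PEX7 are import receptors. AMACR, the racemase that prepares branched fatty acids for this pathway, had 881 and 967 with exosomes against 831 and 763 with PBS (log2 fold change 0.21, SE 0.066, limma adjusted p = 0.254), but 0.036 by the mean of its probe sets. PHYH, the phytanoyl-CoA hydroxylase of alpha-oxidation, had a log2 fold change of 0.13 (SE 0.057, limma adjusted p = 0.454).

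Of 12 measured genes listed around fatty acid elongation, the pathway of HSD17B12, 1 was called higher and 0 lower, with 4 above 0 and a median of -0.03. The call was ELOVL5, an elongase of polyunsaturated fatty acids, with 7731 and 8020 with exosomes against 6811 and 6891 with PBS (log2 fold change 0.20, SE 0.036, limma adjusted p = 0.0443). With any 1 of the 4 arrays left out its log2 fold change was 0.17 to 0.23 and its adjusted p 0.164 to 0.461. The 6 measured genes of mitochondrial fatty acid synthesis, around HSD17B8, had a median of -0.04, with 1 above 0, 0 calls by limma and 0 at an unadjusted p under 0.05. CBR4, the partner of HSD17B8, had a log2 fold change of -0.10 (limma adjusted p = 0.502), and MECR, the enoyl reductase of that pathway, one of 0.07 (limma adjusted p = 0.745).

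Of 11 genes of mitochondrial RNase P and isoleucine breakdown, around HSD17B10, 0 were called by limma, 3 were higher at an unadjusted p under 0.05, and the median was -0.02. BCKDHB, a subunit of the branched-chain ketoacid dehydrogenase, had 682 and 686 with exosomes against 593 and 568 with PBS (log2 fold change 0.24, SE 0.056, limma adjusted p = 0.123), but 0.070 by the mean of its probe sets. ACAT1, the mitochondrial thiolase, had a log2 fold change of 0.12 (limma adjusted p = 0.287). Of 19 measured genes of dolichol and N-glycan precursor synthesis, around SRD5A3, 13 were above 0 with a median of 0.04, and 0 were called by limma, also at an unadjusted p under 0.05. DHRSX, an oxidoreductase of dolichol synthesis, had a log2 fold change of 0.16 (limma adjusted p = 0.479), and NUS1, a subunit of the prenyltransferase that starts it, one of 0.11 (limma adjusted p = 0.550).

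Of 11 measured lipid droplet genes, around HSD17B11, 0 were called by limma, 1 was lower at an unadjusted p under 0.05, and the median was -0.001. TMT1A, a thiol methyltransferase of lipid droplets, had 2229.8 and 2196 with exosomes against 2503 and 2478 with PBS (log2 fold change -0.17, SE 0.042, limma adjusted p = 0.139), or -0.069 by the mean of its probe sets. DGAT2, the last enzyme of triglyceride synthesis, had a log2 fold change of 0.07 (limma adjusted p = 0.731). A list of 9 genes was drawn around the supply of UDP-glucuronic acid, the second substrate of the UGT2B enzymes. Not all of them supply it: GUSB is a glucuronidase, which removes glucuronic acid from conjugates. Of the 9, 7 were above 0, 0 were called by limma, 2 were higher at an unadjusted p under 0.05, and the median was 0.08. PGM1, a phosphoglucomutase, had 496 and 488 with exosomes against 437 and 427 with PBS (log2 fold change 0.19, SE 0.059, limma adjusted p = 0.262). HK1, a hexokinase, had a log2 fold change of 0.13 (SE 0.043, limma adjusted p = 0.297).

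Of 15 measured genes of the list of androgen receptor targets in LNCaP, 11 were above 0, against 44% of all genes. The median was 0.06. By limma 1 was called higher and 0 lower, against 0.700% and 0.188% of all genes. At an unadjusted p under 0.05, 6 were higher, against 5.76% of all genes. The call was HPGD, the dehydrogenase that inactivates prostaglandins, with 586.3 and 585.5 with exosomes against 432 and 426 with PBS (log2 fold change 0.45, SE 0.057, limma adjusted p = 0.00970). Without any 1 of the 4 arrays its log2 fold change was 0.44 to 0.46 and its adjusted p 0.0678 to 0.158. Over the 10 lists 135 of 145 different genes were measured, the medians ran from -0.05 to 0.08, and 4 of the 10 were above 0, or 5 to 7 with 1 array left out. The medians were all below 0 when the arrays were centred on the poly-A spike-ins, from -0.19 to -0.06, beside a shift of the median of all genes to -0.15.

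**Figure D5:**
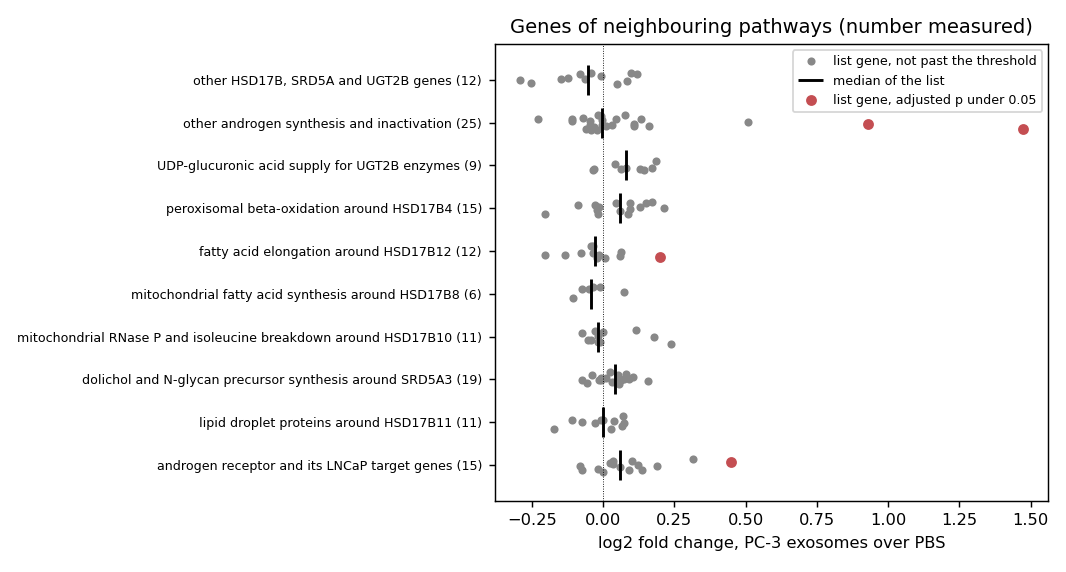
Each row is a list of genes around the members with the number measured, and the x axis is the log2 fold change, PC-3 exosomes over PBS. Grey points are genes not past the threshold, red points are the 4 called genes (AKR1C1, AKR1C2, ELOVL5 and HPGD) and bars the list medians, which lie between -0.05 and 0.08.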

How the data were processed

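RNA of LNCaP cells was measured on 4 Affymetrix arrays, 2 for PC-3 exosomes and 2 for PBS, grouped by their sample labels. The authors deposited 1 normalized intensity per probe set and array. MAS5 and RMA are named, per the submitters' processing notes, without their role or order; the genome build is not given in the sources used here. Probe sets were named through GEO's platform annotation: of 49395 probe sets, 102 were controls, 44988 named 1 gene, 1832 several and 2473 none. Gene symbols were checked against RefSeq, which updated 0 of them.

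Values were taken to log2 of the intensity plus a pseudocount of 1, with no further normalization, so folds are ratios of values plus 1. Of the 18132 genes, 11734 had more than 1 probe set, and the one with the highest mean stood for the gene. Groups were compared with limma 3.58.1 in R 4.3.3 (lmFit, eBayes with a trend), exosomes minus PBS, two-sided, with Benjamini-Hochberg adjustment over all genes or all single-gene probe sets and a threshold of 0.05. The gene fit had 2 residual and 6.99 prior degrees of freedom, and the probe-set fit 5.65 prior ones. With 2 arrays a group, exact permutation has a smallest two-sided p of 0.333, and the p-values given here therefore depend on limma's variance model. The fit was also run on simulated data, but their variances were drawn from that same model, so the run cannot test it.

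All members were named; of their probe sets, those past the threshold or that differ in sign or by over 0.3 from the one that stands for the gene had to be named, and the others were added. Each list contributed up to 4 genes past the threshold or, with none, its 2 genes of smallest p. The members and lists were chosen with earlier results of these data known. Alternatives were quantile, median and poly-A centring, pseudocounts of 0 and 16, a filter on dim genes, eBayes without a trend or robust, thresholds of 0.1 and 0.01, the replicate number as a block, the mean of a gene's probe sets, and each array left out. The fit with multi-gene probe sets was chosen after seeing the data. Figures were drawn with matplotlib 3.10.9.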

Additional observations from a re-analysis of the deposited data

How the results depend on the processing

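The call of HSD17B4 was kept under quantile normalization, median centring, both other pseudocounts, the filter on dim genes, robust eBayes, a threshold of 0.1 and the mean of its probe sets. It was lost without a trend (log2 fold change 0.26, limma adjusted p = 0.278), at a threshold of 0.01 (0.26), with poly-A centring (0.12) and with any array left out (0.24 to 0.29); the cause was not tested. The replicate numbers are not explained in the labels. The correlation of the within-group differences was -0.04 over 18132 genes, so no broad difference common to both groups followed the replicate number. This correlation cannot show whether arrays of the same number share a culture, day or batch, so whether the arrays are paired is not known. With the replicate block, 2 genes were called higher and 0 lower, 0 probe sets were called, and HSD17B4 kept its 0.26 (limma adjusted p = 0.186). AKR1C1, AKR1C2, HPGD and ELOVL5 were not called with the block, and ELOVL5 also not with poly-A centring, without a trend, at 0.01 or by the mean of its probe sets, nor HPGD without a trend.

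Genes called higher numbered 60 with poly-A centring, 213 under the filter, 18 without a trend, 203 at 0.1, 43 at 0.01 and 28 to 40 with an array left out, in place of 127. Genes called lower numbered 326 with poly-A centring, 67 with quantile normalization, 84 under the filter, 3 without a trend, 69 at 0.1, 5 at 0.01 and 4 to 7 with an array left out, in place of 34. Probe sets called higher numbered 171 with quantile normalization, 185 under the filter and at 0.1, 10 without a trend, 24 at 0.01 and 0 to 4 with an array left out, in place of 107. Probe sets called lower numbered 748 with poly-A centring (beside 123 higher), 28 with quantile normalization, 34 under the filter, 27 at 0.1, 1 at 0.01 and 0 without a trend or with an array left out, in place of 9. Of the member probe sets, 3 were called, all of HSD17B4, under quantile normalization, median centring, the filter and a threshold of 0.1, and 0 with poly-A centring, without a trend, at 0.01, with the block or with an array left out. Member genes called fell to 0 in the last 5 of these.

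Among the lists, elongation had 0 calls with poly-A centring, without a trend, at 0.01, with the block, by the mean of probe sets or with an array left out. Androgen receptor targets had 2 calls under the filter and at 0.1, and 0 without a trend, with the block or with an array left out. Androgen synthesis and inactivation had 0 calls under the filter, which leaves out the dim AKR1C genes, and with the block. Lipid droplets and the other family members had 1 call each with poly-A centring, and the RNase P list 1 under the filter.

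Signs turned for results that were not called. With poly-A centring the log2 fold changes were -0.119 for HSD17B10, -0.0557 for HSD17B12, -0.0144 for its 11750207_a_at, -0.0556 for HSD17B11 11730778_a_at, -0.117 for SRD5A1 11742802_a_at, -0.0332 for UGT2B15 11741265_s_at and -0.139 for 11741266_x_at, and among list genes -0.0235 for ACAT1, -0.0675 for DGAT2, -0.0096 for HK1, -0.0665 for MECR, -0.0347 for NUS1 and -0.0084 for PHYH. HSD17B12 11759794_at was 0.0171 with quantile normalization and 0.0102 with median centring, UGT2B15 11741266_x_at -0.0185 with quantile normalization, HSD17B8 0.00069 with median centring, and by the mean of probe sets HSD17B11 was 0.027 and NUS1 -0.0341. With an array left out HSD17B10 ran from -0.0098 to 0.0508, HSD17B11 from -0.0779 to 0.0176 and its 11730778_a_at from -0.0121 to 0.18, HSD17B8 from -0.0637 to 0.0358, HSD17B12 11759794_at from -0.0575 to 0.0487, UGT2B15 11741265_s_at from -0.0092 to 0.222 and 11741266_x_at from -0.125 to 0.126. The filter leaves out dim probe sets, so those have no value under it.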
